A study of Mus musculus with 30 samples.

Results

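The comparison described here set the glomeruli of 3 female BTBR ob/ob mice against those of 3 female BTBR wild-type mice at 4 weeks of age, 6 of the 30 arrays of the series. The arrays were chosen by their titles, and all 24099 genes tested were compared. BTBR ob/ob mice carry no functional leptin in any cell. Control animals were of the same strain and sex with leptin intact, and no other allele or agent is named in the labels. Kidneys were pressed through sieves of decreasing mesh to collect glomeruli, and each array held the RNA of 1 animal. At 8, 16 and 24 weeks 4 animals per genotype were measured in the same way. The values are log2 signals as the authors deposited them. Differences are ob/ob minus wild type in these log2 units, with the standard error after ±, and are not read as linear folds because the deposited scale reached above the range of the scanner.

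The glomerulus is the capillary tuft that filters blood. Its wall is built by endothelial cells, a basement membrane and podocytes, and mesangial cells hold the loops together. Leptin is a hormone of fat tissue that restrains feeding through receptors in the brain. Mice without it overeat and become obese, and on the BTBR background they become diabetic while young and later develop a kidney disease that resembles diabetic nephropathy in people. Animals of 4 weeks stand at the beginning of that course.

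The genotypes differed little at 4 weeks. One gene of 24099 (0.00415% of those tested) passed limma's test at an adjusted p of 0.05, Akr1c18, which was lower in ob/ob. At an unadjusted p under 0.05, 1082 genes (4.49%) were counted, 533 higher and 549 lower in ob/ob. In 2924 genes (12.1%) the 3 ob/ob arrays lay wholly above or wholly below the 3 wild-type arrays, 1605 of them lower (6.66%) and 1319 higher (5.47%). Among these, 61 genes (0.253%) also differed by at least 1 unit, 31 of them higher (0.129%) and 30 lower (0.124%). Sfrp2 at -1.002 was the smallest difference just inside that limit and Aspn at 0.99 the largest just outside it. The median difference over all tested genes was 0.01, and 46.8% of genes had a negative difference. With 3 animals against 3, an exact permutation test of a single gene cannot give a p below 0.1, so consistency is given below as overlap between arrays, and the p-values of single genes come from limma's fit, which takes its error from all 30 arrays.

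Arrays of 4 weeks correlated at 0.985 to 0.996 with each other over genes, and their exon and intron controls were separated alike, at 0.826 to 0.862. Intron controls, which show the level of background, had array medians of 6.14 to 6.23. Markers of the proximal tubule averaged 15.7 to 16.3 in every array, far above those controls, so RNA of tubule cells was present in all preparations. In ob/ob their mean was 15.9 in replicate 1, 16.0 in replicate 2 and 15.9 in replicate 3, within the wild-type range of 15.7 to 16.3. Markers of the distal nephron and collecting duct averaged 11.4, 11.5 and 11.7 in ob/ob and 11.2, 12.3 and 11.4 in wild type, and wild-type replicate 2 stood above the other arrays. Podocyte markers averaged 9.90 to 10.5 over these arrays, endothelial markers 10.4 to 10.9, and mesangial and smooth muscle markers 9.25 to 9.63. Tubule markers thus read higher than markers of the filter in every array. The share of RNA from each tissue was not measured. In whole-glomerulus RNA, fewer cells of a type and less RNA per cell cannot be told apart. Lep itself was close to background in both genotypes, at 5.17, 5.22 and 4.88 in ob/ob and 5.20, 5.03 and 5.25 in wild type, so it checks no label. Lepr, the leptin receptor, differed by -0.08 ± 0.21.

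Akr1c18 encodes the 20-alpha-hydroxysteroid dehydrogenase that inactivates progesterone. It read 5.31, 5.30 and 5.23 in ob/ob and 6.86, 6.89 and 9.07 in wild type. All ob/ob arrays were below the intron control median, and all wild-type arrays were above it, with replicate 3 far higher than the others. The difference was -2.33 ± 0.33 (limma adjusted p = 0.00512). It was -1.60 ± 0.18 without wild-type replicate 3 (adjusted p = 9.22e-05), and without ob/ob replicate 3 the adjusted p was 0.0625. With only the 6 arrays of 4 weeks in the fit, which leaves the error of this gene to a few animals, the adjusted p was 0.525. The standard deviation of Akr1c18 was 1.26 in wild type at 4 weeks and 0.05 to 0.36 in the other groups. The main fit takes 1 spread for all 8 groups, so the error of 0.33 does not reflect the spread of these wild-type arrays. At the other ages Akr1c18 read 5.27 to 5.73 in all ob/ob arrays and 5.91 to 6.76 in all wild-type arrays, so the genotypes did not overlap at any age. The difference was -0.87 at 8 weeks (adjusted p = 0.141), -0.77 at 16 weeks (adjusted p = 0.2003) and -1.24 at 24 weeks (adjusted p = 0.00306). In 3 of the 4 ob/ob arrays of 24 weeks exon and intron controls were separated less, at 0.762 to 0.783 against 0.826 to 0.886 in the other 27 arrays, and intron controls were brighter, with medians of 6.68 to 6.79 against 5.73 to 6.35. Without those 3 arrays, which leaves 1 ob/ob animal of that age whose spread is taken from the other groups, the difference of Akr1c18 at 24 weeks was -1.22 (adjusted p = 0.259).

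Other enzymes of steroid hormone synthesis were likewise lowest in replicate 1 and highest in replicate 3 of wild type. These genes were picked out after their values were seen, because they stood beside Akr1c18 among the largest differences. Star, the carrier that brings cholesterol into mitochondria for steroid synthesis, read 5.03, 5.01 and 4.94 in ob/ob and 5.602, 6.67 and 7.47 in wild type, a difference of -1.59 ± 0.32 (adjusted p = 0.198). Cyp11a1, which makes pregnenolone from cholesterol, read 4.71, 4.68 and 4.70 against 5.45, 6.03 and 7.39. For both genes the ob/ob arrays read alike and every wild-type array was higher, though replicate 1 was still below the intron control level. For Cyp11a1 wild-type replicate 2 was below it as well. Cyp21a1, the 21-hydroxylase, read 5.57, 5.55 and 5.28 in ob/ob and 6.32, 7.34 and 8.05 in wild type. Cyp11b1, which makes corticosterone, read 4.93, 4.69 and 4.73 against 5.55, 6.74 and 8.61. The standard deviation of Cyp11b1 was 1.54 in wild type at 4 weeks and 0.12 to 0.91 in the other groups, while the fit takes 1 spread. Hsd3b1, which makes progesterone from pregnenolone, read 6.24, 6.08 and 6.19 against 6.92, 7.10 and 8.02. Cyp21a1 and Cyp11b1 act in the adrenal cortex, which lies against the upper pole of the kidney.

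Wild-type replicate 3 held the highest value of all 30 arrays for Akr1c18 and each of these 5 genes. Of 15 adrenal cortex genes in a list made after the values were seen, 13 were tested, and 7 of them were lower in ob/ob without overlap (all genes, 6.66%): Akr1c18, the 5 genes above and Mc2r, the receptor of adrenocorticotropin. Mc2r, a defining gene of adrenal cortex cells, stayed below the intron control level in every array, at 5.23 to 5.46, as did Mrap and Nr5a1. The list mean was 5.59 to 5.68 in ob/ob and 6.07, 6.46 and 6.97 in wild type. Of 6 adrenal medulla genes 4 were tested, and none was free of overlap. The part of adrenal cortex transcripts in the Akr1c18 difference was not tested. Without wild-type replicate 3 the difference of Star was -1.15 ± 0.30 and that of Cyp11b1 was -1.36 ± 0.44, and adjusted p was 1 for each. Without wild-type replicate 1 they were -2.08 ± 0.29 (adjusted p = 0.00228) and -2.89 ± 0.48 (adjusted p = 0.0125), and Cyp11a1 and Cyp21a1 passed as well. At 8 weeks the difference of Star was -0.44, and at 16 weeks it was 0.09; the highest value at the other ages, 6.205, was in wild-type 8 week replicate 2, as it was for Cyp11a1, Hsd3b1, Cyp21a1 and Cyp11b1. For Akr1c18 the highest value at the other ages was in wild-type 24 week replicate 2.

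**Figure D1:**
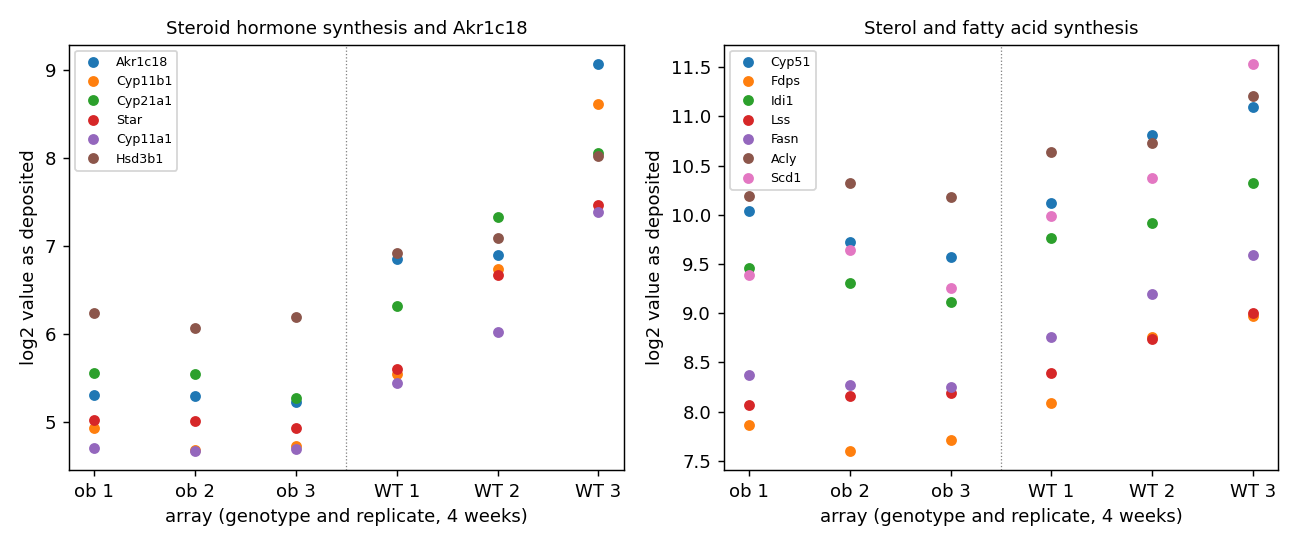
Log2 values of single genes (vertical axis) in each of the 6 arrays of 4 weeks (horizontal axis). The left panel shows Akr1c18 and genes of steroid hormone synthesis, with ob/ob arrays of Akr1c18 at 5.23 to 5.31 and wild-type replicate 3 at 9.07. The right panel shows genes of sterol and fatty acid synthesis, where wild-type replicate 1 lies nearest to ob/ob.

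Most genes of cholesterol synthesis read lower in ob/ob. The list mean was 9.04, 8.96 and 8.97 in ob/ob and 9.05, 9.40 and 9.64 in wild type, so wild-type replicate 1 was level with ob/ob replicate 1. Cells build cholesterol from acetyl units through mevalonate and squalene, and the transcription factors SREBP-1 and SREBP-2 turn on most enzymes of fatty acid and cholesterol synthesis when sterols are scarce or insulin is high. Of 20 cholesterol synthesis enzymes 15 were tested; 13 had a negative difference, 7 were lower without overlap (all genes, 6.66%), 6 had an unadjusted p under 0.05 (all genes, 2.28%), and none passed the adjusted threshold. Their median difference was -0.33, against 0.01 over all genes. Members of this and the other lists were chosen with earlier results of these data known. Shares set beside all genes therefore describe the lists and are no independent evidence. Cyp51, the lanosterol demethylase, read 10.04, 9.72 and 9.57 in ob/ob and 10.1, 10.8 and 11.1 in wild type, a difference of -0.90 ± 0.25 (adjusted p = 0.637). Fdps, which makes farnesyl diphosphate, read 7.86, 7.60 and 7.71 against 8.09, 8.76 and 8.97, a difference of -0.88 ± 0.22 (adjusted p = 0.481). Ob/ob arrays lay close together for both genes, and the wild-type arrays were spread, with replicate 1 nearest to ob/ob. Idi1, the isopentenyl diphosphate isomerase, differed by -0.71 ± 0.27, Lss, the lanosterol synthase, by -0.57 ± 0.20, and Dhcr7, which carries out the last reduction, by -0.41 ± 0.11. Mvd and Fdft1 were the other members without overlap, at -0.44 ± 0.24 and -0.42 ± 0.23; without wild-type replicate 3 Mvd was at -0.15.

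Most genes of fatty acid synthesis also read lower. Of its 17 tested genes 13 had a negative difference, 7 were lower without overlap (all genes, 6.66%) and 5 of them had an unadjusted p under 0.05 (all genes, 2.28%), and the median difference was -0.23. Scd1, the desaturase that makes oleate, read 9.39, 9.64 and 9.25 in ob/ob and 9.99, 10.4 and 11.5 in wild type, a difference of -1.20 ± 0.46 (adjusted p = 0.993). Fasn, the fatty acid synthase, read 8.37, 8.27 and 8.25 against 8.76, 9.19 and 9.59, a difference of -0.88 ± 0.23. Both genes were highest in wild-type replicate 3. Fads1, a desaturase of polyunsaturated fatty acids, differed by -0.70 ± 0.19, Acly, which supplies acetyl-CoA, by -0.63 ± 0.23, and Acaca, which makes malonyl-CoA, by -0.44 ± 0.14. Fads2 and Dgat1 completed the 7, at -0.40 ± 0.33 and -0.13 ± 0.11; without wild-type replicate 3 Dgat1 was at -0.026 and Scd1 at -0.75.

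Within wild type, 12 of the 15 cholesterol genes and 11 of the 17 fatty acid genes were highest in replicate 3, the array that was also highest for the steroid hormone genes, and 13 of the 15 cholesterol genes were lowest in replicate 1. The part of the steroid hormone signal in the lipid genes was not tested. Without wild-type replicate 3, 7 cholesterol genes and 7 fatty acid genes were lower without overlap (all genes in that setting, 9.23%), 3 of each list had an unadjusted p under 0.05 (1.34%), and the medians were -0.16 and -0.19. Without wild-type replicate 1, 14 of the 15 cholesterol genes were lower without overlap; fewer arrays overlap less often, and the share over all genes was then 13.3%. In other animals, the cholesterol list had median differences of -0.25 at 8 weeks, -0.43 at 16 weeks and -0.78 at 24 weeks, or -0.74 without the 3 arrays that stand apart.

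Some genes of lipid use stood higher. Of 19 tested genes of fatty acid oxidation and PPAR targets, 4 were higher without overlap and none was lower (all genes, 5.47% higher and 6.66% lower). A higher value with an unadjusted p under 0.05 was found in 1 of the 19 (5.26%; all genes, 2.21%), too few to tell from that share. Angptl4, a secreted inhibitor of lipoprotein lipase, read 8.13, 8.20 and 8.85 in ob/ob and 6.49, 7.34 and 5.92 in wild type, a difference of 1.81 ± 0.67 (adjusted p = 0.993). Its target Lpl, the lipoprotein lipase that frees fatty acids from circulating triglyceride, was lower in every ob/ob array, at 10.5, 10.7 and 10.8 against 11.6, 12.2 and 11.5, a difference of -1.10 ± 0.30 (adjusted p = 0.605). Neither gene overlapped between genotypes. Vnn1, a pantetheinase, differed by 1.05 ± 0.59, Cyp4a14, a fatty acid hydroxylase, by 0.84 ± 0.64 and Cpt2, of carnitine-dependent fatty acid import, by 0.22 ± 0.39. Apob, the structural protein of lipoproteins, read 8.89, 9.47 and 8.76 in ob/ob and 8.05, 6.91 and 8.31 in wild type. Bbox1, the last enzyme of carnitine synthesis, read 8.18, 8.22 and 8.56 against 6.93, 6.88 and 7.27, a difference of 1.29 ± 0.42.

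Among the other large negative differences were transporters and enzymes of the proximal tubule. Slc22a19, an organic anion transporter, read 8.74, 8.37 and 7.68 in ob/ob and 11.5, 10.3 and 11.6 in wild type, a difference of -2.88 ± 0.59 (adjusted p = 0.198). Slc7a12, an amino acid transporter, read 9.58, 10.6 and 8.67 against 11.9, 12.3 and 13.2, a difference of -2.87 ± 0.79. Kap, the kidney androgen-regulated protein, read 15.7, 15.0 and 14.7 against 17.3, 16.7 and 17.6. The gap between the nearest arrays of the genotypes was wider than the spread of the ob/ob arrays for Slc22a19 and not for Slc7a12 or Kap. Further members of the organic anion transporter family, Slc22a7, Slc22a28, Slc22a22, Slc22a13 and Slc22a29, were lower without overlap, by -1.31, -1.30, -1.23, -1.12 and -1.02, and Slc22a30 by -1.01; close relatives may share probe signal. Slc22a22 was separated by less than 0.01 between its nearest arrays, 12.42 and 12.43.

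Dio1, the deiodinase that activates thyroid hormone, read 11.1, 10.3 and 10.8 in ob/ob and 12.6, 11.5 and 13.1 in wild type. Mep1b, a brush border protease, differed by -1.42 ± 0.46, or by -0.67 when the gene's probe sets were averaged, and Papss2, which makes the sulfate donor, by -1.19 ± 0.39. Keg1 differed by -1.02 ± 0.35. Havcr1, the injury marker KIM-1, read 5.98, 5.84 and 5.82 in ob/ob, below the intron control level, and 7.36, 6.54 and 7.09 in wild type, so the genotypes did not overlap. Umod, the uromodulin of the thick ascending limb, read 18.3, 18.4 and 18.4 against 19.0, 19.4 and 18.9, a difference of -0.74 ± 0.23. Of the 23 proximal tubule markers tested 3 were lower and 4 higher without overlap (all genes, 6.66% and 5.47%), and 1 in each direction had an unadjusted p under 0.05 (2.28% and 2.21%).

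Of 31 tested genes of steroid metabolism and sex-dependent expression in kidney, which include Slc22a19, Slc7a12, Kap, Akr1c18, Star and Cyp11a1, 12 were lower and 2 higher without overlap (all genes, 6.66% and 5.47%), and 9 had an unadjusted p under 0.05, all lower (all genes, 2.28%). Odc1, the ornithine decarboxylase, read 14.7, 14.3 and 14.5 in ob/ob and 15.4, 15.0 and 15.2 in wild type, a difference of -0.71 ± 0.20. Akr1c14 and Akr1c19, relatives of Akr1c18, differed by -0.69 ± 0.19 and -0.95 ± 0.44, and Hsd3b2 by -0.56 ± 0.26. This list was written with earlier results of these arrays known and is no independent evidence of a direction.

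**Figure D2:**
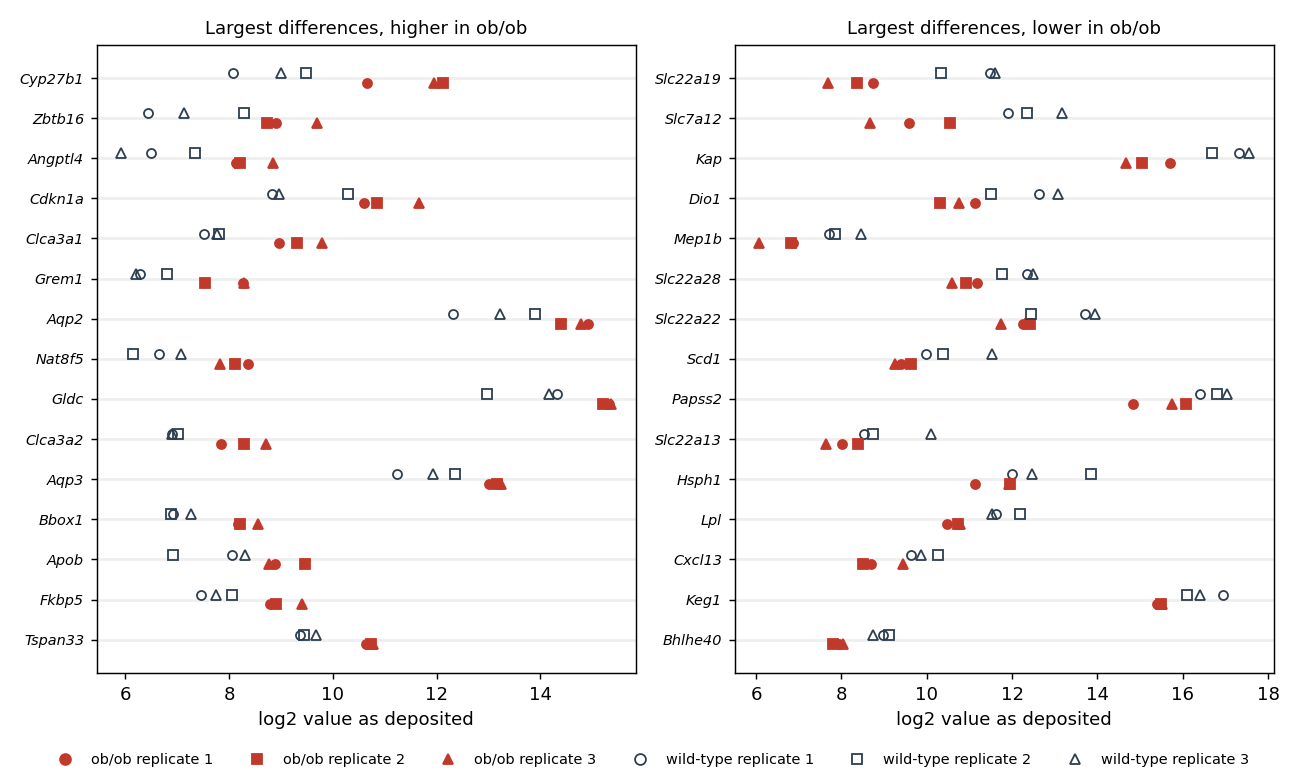
Log2 values (horizontal axis) of the 15 named genes with the largest differences in each direction among genes without overlap and with a group mean of at least 8. Filled symbols are ob/ob arrays, open symbols are wild-type arrays, and the shape gives the replicate; the largest differences are those of Slc22a19, -2.88, and Slc7a12, -2.87.

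The largest high value in ob/ob was that of Cyp27b1, the enzyme that makes active vitamin D. It read 10.66, 12.12 and 11.96 in ob/ob and 8.1, 9.5 and 9.0 in wild type, a difference of 2.73 ± 0.92 (adjusted p = 0.993). The lowest ob/ob array lay above the highest wild-type array by more than 1 unit, while both groups were spread. Of the 12 genes of vitamin D and phosphate handling, Cyp27b1 was the member that was higher without overlap, and 3 were lower (all genes, 5.47% and 6.66%): Casr, the calcium-sensing receptor, differed by -0.88 ± 0.39, with 12.3 in wild-type replicate 2 and 10.21 to 10.96 in the other arrays, and by -0.40 without that array. Pth1r, the receptor of parathyroid hormone, differed by -0.24 ± 0.20, and by -0.088 without wild-type replicate 3. The third was the phosphate transporter Slc34a3, at -0.22 ± 0.28.

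Tspan33, a tetraspanin, read 10.6, 10.7 and 10.8 in ob/ob and 9.37, 9.45 and 9.67 in wild type, a difference of 1.22 ± 0.22 (adjusted p = 0.143). With cyclic loess scaling its adjusted p was 0.00745. Its arrays lay close together in both genotypes, and over the other ages all ob/ob arrays lay between 10.04 and 10.93 and all wild-type arrays between 8.85 and 9.82. Tspan33 lies on chromosome 6 at a distance of 0.634 Mb from Lep (GRCm38.p6). Of 79 tested genes within 5 Mb of Lep 8 did not overlap (10.1%; all genes, 12.1%). Clca3a1 and Clca3a2, relatives of the calcium-activated chloride channel regulators whose probes may share signal, differed by 1.66 ± 0.35 and 1.35 ± 0.29 (adjusted p = 0.198 for each). Clca3a1 read 8.97, 9.31 and 9.79 in ob/ob and 7.51, 7.80 and 7.78 in wild type. Grem1, a secreted inhibitor of bone morphogenetic proteins, read 8.27, 7.53 and 8.30 against 6.28, 6.80 and 6.204.

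Aqp2 and Aqp3, water channels of the collecting duct, were higher in ob/ob, by 1.55 ± 0.84 and 1.31 ± 0.66 (adjusted p = 0.993 for each). Aqp2 read 14.9, 14.4 and 14.8 in ob/ob and 12.3, 13.9 and 13.2 in wild type. Of all 21 distal nephron and collecting duct markers 15 had a negative difference, but without wild-type replicate 2, 16 had a positive one. Gldc, of the glycine cleavage system, read 15.3, 15.2 and 15.4 against 14.3, 13.0 and 14.2. Agt, angiotensinogen, read 9.47, 10.3 and 9.45 against 8.41, 8.59 and 8.90, and Guca2b, uroguanylin, differed by 1.14 ± 0.48. Nat8f5, an acetyltransferase-like gene, differed by 1.48 ± 0.52 and Pck1, the key enzyme of gluconeogenesis, by 1.02 ± 0.41.

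Some genes that glucocorticoid hormones are known to turn on stood higher in ob/ob. The list of 19 was made after the values were seen, so its counts describe and support nothing. All 19 were tested; 17 had a positive difference, 7 were higher without overlap (all genes, 5.47%), the same 7 had an unadjusted p under 0.05 (all genes, 2.21%), and the median was 0.35. Zbtb16, a transcription repressor, read 8.91, 8.73 and 9.69 in ob/ob and 6.43, 8.28 and 7.12 in wild type, a difference of 1.83 ± 0.53 (adjusted p = 0.789). Fkbp5, a co-chaperone of the glucocorticoid receptor, read 8.80, 8.91 and 9.40 against 7.46, 8.06 and 7.75, a difference of 1.27 ± 0.33 (adjusted p = 0.554). Cdkn1a, the cell cycle inhibitor p21, read 10.6, 10.8 and 11.7 against 8.83, 10.3 and 8.96. In all 3 genes ob/ob replicate 3 was the highest array and wild-type replicate 2 the highest of its group. Lpin1 differed by 0.98 ± 0.31, Sgk1, a kinase of sodium transport, by 0.82 ± 0.39 and Hif3a by 0.46 ± 0.10; Angptl4 was the seventh. Per1 also had a positive difference, 0.81, but overlapped, with 9.68 in wild-type replicate 2 and 8.52 to 9.11 in ob/ob. Its difference was 1.65 without wild-type replicate 2 and 0.32 without wild-type replicate 3. Without wild-type replicate 2, 11 of the 19 were higher without overlap (all genes in that setting, 9.36%). Without wild-type replicate 3, 7 were (8.23%), and 4 had an unadjusted p under 0.05 (1.18%). In ob/ob replicate 3 lay the highest value of 15 of the 19. Without that array the median was 0.23, 7 were higher without overlap (11.9%) and 5 had an unadjusted p under 0.05 (3.22%). The list mean overlapped between genotypes, at 9.78, 9.96 and 10.34 in ob/ob and 9.22, 9.83 and 9.13 in wild type.

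Most interferon-stimulated genes read slightly lower in ob/ob. Members of this list, too, were chosen with earlier results of these data known. Interferons act through a short DNA element in front of antiviral genes, the interferon-stimulated response element. Of 31 tested genes 30 had a negative difference (all genes, 46.8%), 14 were lower without overlap (6.66%), 6 had an unadjusted p under 0.05 (2.28%), none passed the adjusted threshold, and the median was -0.33. Gbp3, a guanylate-binding protein, read 6.72, 6.97 and 6.50 in ob/ob and 7.57, 7.37 and 7.51 in wild type, a difference of -0.75 ± 0.23 (adjusted p = 0.943). Bst2, tetherin, read 8.46, 9.08 and 9.03 against 9.47, 9.91 and 9.24. The genotypes were separated in both genes, by less than 0.5 between their nearest arrays. Irf9, the DNA-binding partner of STAT2, read 6.88, 7.30 and 7.12 against 7.56, 7.54 and 7.42, a difference of -0.41 ± 0.15. Oas1a, an RNA sensor, differed by -0.44 ± 0.17, Usp18 by -0.47 ± 0.21, Stat2 by -0.37 ± 0.16, Rsad2, viperin, by -0.41 ± 0.22 and Irf7 by -0.34 ± 0.16. The other members without overlap, Xaf1, Oasl2, Ifit1, Ifit3, Ifih1 and Ifi35, lay between -0.45 for Xaf1 and -0.12 for Ifi35.

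Several of these genes lay near the intron control level, where background compresses differences: Oas1a read 6.10, 5.76 and 6.01 in ob/ob and 6.46, 6.48 and 6.26 in wild type. Within wild type 17 of the 31 were highest in replicate 1, which was the lowest array for most cholesterol genes. Without wild-type replicate 1, 29 of the 31 were negative, 14 were lower without overlap (all genes in that setting, 13.3%) and 3 had an unadjusted p under 0.05 (2.95%), and the median was -0.22. Without ob/ob replicate 1, the 6 with an unadjusted p under 0.05 became 2 (1.03%), and without ob/ob replicate 2, 22 were lower without overlap (9.93%). Macrophage markers averaged 6.39 to 6.56 in ob/ob and 6.46 to 6.58 in wild type, and lymphocyte markers 5.25 to 5.44 and 5.35 to 5.51; their part in the interferon difference was not tested. At 8, 16 and 24 weeks the list had medians of -0.21, -0.13 and -0.48, the last -0.34 without the 3 arrays that stand apart.

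The promoters of 4 members show the element that these genes share. Each is the RefSeq stretch from 250 bases before to 50 bases after the start in GRCm38.p6, written along the gene's strand. Capitals mark matches to GAAANNGAAA on either strand, and overlapping matches run together.
Gbp3, chr3:142559794-142560093, plus strand: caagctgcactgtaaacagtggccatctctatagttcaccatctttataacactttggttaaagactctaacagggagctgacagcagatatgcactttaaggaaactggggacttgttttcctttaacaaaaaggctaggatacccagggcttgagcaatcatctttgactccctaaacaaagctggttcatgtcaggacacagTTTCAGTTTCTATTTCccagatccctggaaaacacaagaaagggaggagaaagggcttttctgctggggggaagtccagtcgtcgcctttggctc
Oas1a, chr5:120907476-120907775, minus strand: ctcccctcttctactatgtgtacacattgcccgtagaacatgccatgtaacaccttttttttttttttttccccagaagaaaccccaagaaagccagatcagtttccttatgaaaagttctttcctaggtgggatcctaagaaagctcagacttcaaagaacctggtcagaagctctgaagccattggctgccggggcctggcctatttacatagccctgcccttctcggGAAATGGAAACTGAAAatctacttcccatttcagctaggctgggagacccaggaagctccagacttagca
Bst2, chr8:71537423-71537722, minus strand: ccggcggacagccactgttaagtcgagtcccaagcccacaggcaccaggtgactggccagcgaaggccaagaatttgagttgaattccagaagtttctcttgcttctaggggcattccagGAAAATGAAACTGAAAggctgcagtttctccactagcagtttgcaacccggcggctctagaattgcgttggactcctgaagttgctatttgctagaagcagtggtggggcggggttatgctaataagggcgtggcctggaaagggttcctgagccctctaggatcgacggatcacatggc
Rsad2, chr12:26456403-26456702, minus strand: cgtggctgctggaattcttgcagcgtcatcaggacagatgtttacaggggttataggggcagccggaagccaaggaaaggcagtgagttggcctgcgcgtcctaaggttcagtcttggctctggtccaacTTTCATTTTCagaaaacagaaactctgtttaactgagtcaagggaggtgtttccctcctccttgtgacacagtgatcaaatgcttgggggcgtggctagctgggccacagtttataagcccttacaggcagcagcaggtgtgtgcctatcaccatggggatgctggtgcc
Of the 31 tested genes 23 had a promoter in the RefSeq table, and 15 of these (65.2%) held the motif, against 3.99% of 27025 genes. The list was drawn from interferon-stimulated genes, so that share says nothing about ob/ob. Among the 15, 8 were lower without overlap: Bst2, Gbp3, Ifih1, Ifit1, Ifit3, Oas1a, Rsad2 and Stat2. Of all 31 tested members 14 were (all genes, 6.66%). Whether the motif goes with the genotype difference was not tested. In the same search the sterol regulatory element, TCACNCCAC, was in 1 of 12 tested cholesterol genes with a promoter (all genes, 1.44%). That gene, Hmgcs1, overlapped between genotypes and differed by 0.04. A match in the letters is a description and does not show a bound site.

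Most chaperone genes of the heat shock response and of the endoplasmic reticulum had negative differences, whose size varied with single arrays. The means of both lists overlapped between genotypes. For heat shock genes the mean was 10.63, 10.83 and 10.94 in ob/ob and 10.81, 11.98 and 11.04 in wild type. All 10 tested heat shock genes had a negative difference, with a median of -0.30, and 9 of the 10 were highest of wild type in replicate 2. Hspa1a, the inducible Hsp70, read 6.22, 6.79 and 7.01 in ob/ob and 6.42, 11.3 and 7.01 in wild type, so a single array stood apart. Hsph1, a partner of Hsp70, was lower without overlap, at 11.1, 11.9 and 11.9 against 12.004, 13.8 and 12.5, a difference of -1.11 ± 0.39 (adjusted p = 0.993), and -0.57 ± 0.37 without wild-type replicate 2. Hsp90aa1 also did not overlap, at -0.62 ± 0.24. Without wild-type replicate 2, 8 of the 10 were negative, the median was -0.07 and none had an unadjusted p under 0.05, against 2 with all arrays (all genes, 2.28%). Without ob/ob replicate 1 none had one either, with a median of -0.22, and without wild-type replicate 1, 5 had one (2.95%) and 7 were lower without overlap (13.3%). In the animals of 8, 16 and 24 weeks the median of the list was -0.69, -0.07 and -0.32, the last with the 3 arrays that stand apart included.

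Genes of the unfolded protein response averaged 11.17, 11.52 and 11.48 in ob/ob and 11.20, 12.08 and 11.56 in wild type. Of 20 tested 18 had a negative difference, 1 was lower without overlap (all genes, 6.66%) and 3 had an unadjusted p under 0.05 (2.28%). The median was -0.19, and 18 of the 20 were highest of wild type in replicate 2. Without that array 13 of the 20 were negative, the median was -0.04 and none had an unadjusted p under 0.05. Without ob/ob replicate 1 none had one either, with a median of -0.09. Without wild-type replicate 1, 9 had one (all genes in that setting, 2.95%) and 12 were lower without overlap (13.3%). At 8, 16 and 24 weeks the median was -0.40, -0.06 and -0.46, the last with the 3 arrays that stand apart included. Wild-type replicate 2 was also the array with the highest distal nephron mean, 12.3. The part of that tissue in the chaperone values was not tested. The endoplasmic reticulum stress element was in 7 of the 18 unfolded protein response genes with a promoter (all genes, 0.137%). None of the 7 was lower without overlap. The promoter of Hsph1 is given because it holds the heat shock element GAANNTTCNNGAA (capitals, either strand), present in 0.662% of the 27025 genes and in 3 of the 8 tested heat shock genes with a promoter.
Hsph1, chr5:149636287-149636586, minus strand: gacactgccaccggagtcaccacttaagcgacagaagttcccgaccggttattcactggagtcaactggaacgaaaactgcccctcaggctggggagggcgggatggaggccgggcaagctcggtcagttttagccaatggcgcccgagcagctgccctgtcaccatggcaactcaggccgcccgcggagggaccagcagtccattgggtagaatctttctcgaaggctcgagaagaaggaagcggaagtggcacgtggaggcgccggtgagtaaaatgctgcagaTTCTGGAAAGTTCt

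**Figure D3:**
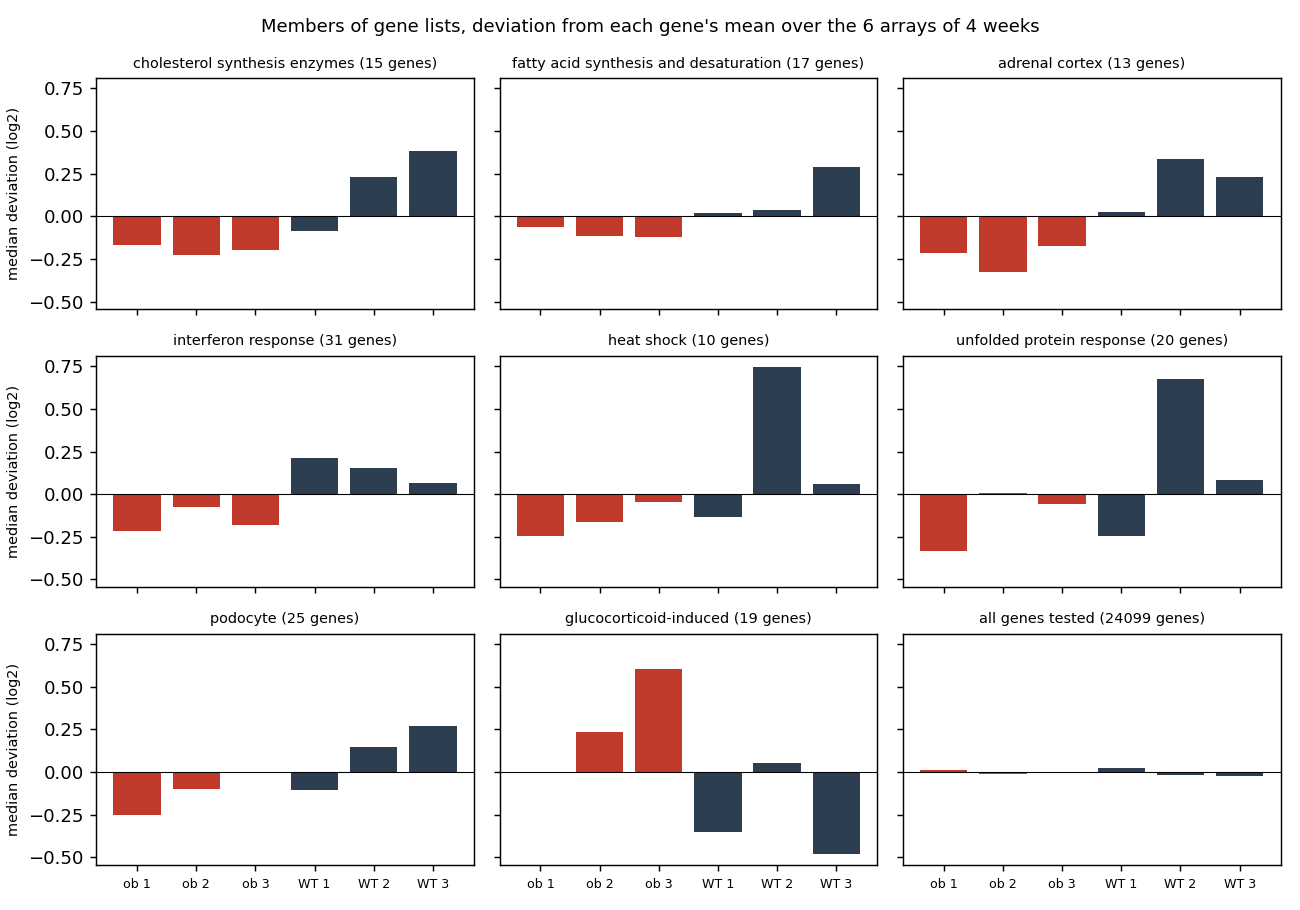
Median deviation (vertical axis, log2 units) of the members of each list from each gene's mean over the 6 arrays, by array (horizontal axis); red bars are ob/ob and dark bars wild type. Heat shock and unfolded protein response genes stand out in wild-type replicate 2, cholesterol genes in wild-type replicates 2 and 3, and all genes tested lie near 0 in every array.

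The cells of the filter itself showed small differences. Of 25 tested podocyte markers 24 had a negative difference (all genes, 46.8%) and 5 were lower without overlap (6.66%). None had an unadjusted p under 0.05 in limma's fit, and the median was -0.19. The standard errors and p-values here come from all 30 arrays, including those of 24 weeks, where the list median difference was -1.09. They do not measure the spread at 4 weeks alone. Nphs1, nephrin, the core protein of the slit diaphragm, read 9.77, 9.70 and 10.4 in ob/ob and 10.1, 9.86 and 10.3 in wild type, so the genotypes overlapped. Wt1, the podocyte transcription factor, differed by -0.19 ± 0.51 and Podxl, podocalyxin, by -0.14 ± 0.73. Ptpro, a phosphatase of the podocyte membrane, read 9.38, 9.92 and 9.81 against 10.3, 10.4 and 10.8, without overlap (-0.82 ± 0.71, adjusted p = 0.993). Cdkn1c, the cell cycle inhibitor p57 of mature podocytes, and Plce1, a phospholipase, were also lower in all 3 arrays, at -0.79 ± 0.67 and -0.52 ± 0.53. Lmx1b and Synpo, the other members without overlap, differed by -0.17 and -0.16.

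The mean of the podocyte list was 9.90, 10.1 and 10.3 in ob/ob and 10.2, 10.4 and 10.5 in wild type, so it overlapped between genotypes. Without wild-type replicate 1, 15 of the 25 were lower without overlap, and without ob/ob replicate 3, 11 were, when 13.3% and 12.9% of all genes were. With all arrays, 6.66% of all genes were lower and 5.47% higher without overlap. Of 18 endothelial markers 3 were lower without overlap, Lpl among them, and of 13 mesangial and smooth muscle markers 3 were, with Sfrp2, a Wnt inhibitor, at 8.87, 8.87 and 8.81 against 9.84, 9.87 and 9.85. Of 19 basement membrane genes 2 and of 24 matrix genes 4 were lower without overlap, none was higher, and their medians were -0.04 and -0.02. Inflammatory genes (14 tested, 3 lower and 1 higher without overlap) and complement genes (11 tested, 1 higher) had medians of 0.02 and -0.01. Cxcl13, a chemokine for B cells, read 8.70, 8.51 and 9.44 in ob/ob and 9.64, 10.3 and 9.85 in wild type, and Bhlhe40, a repressor of the circadian clock, differed by -1.02 ± 0.40.

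**Figure D4:**
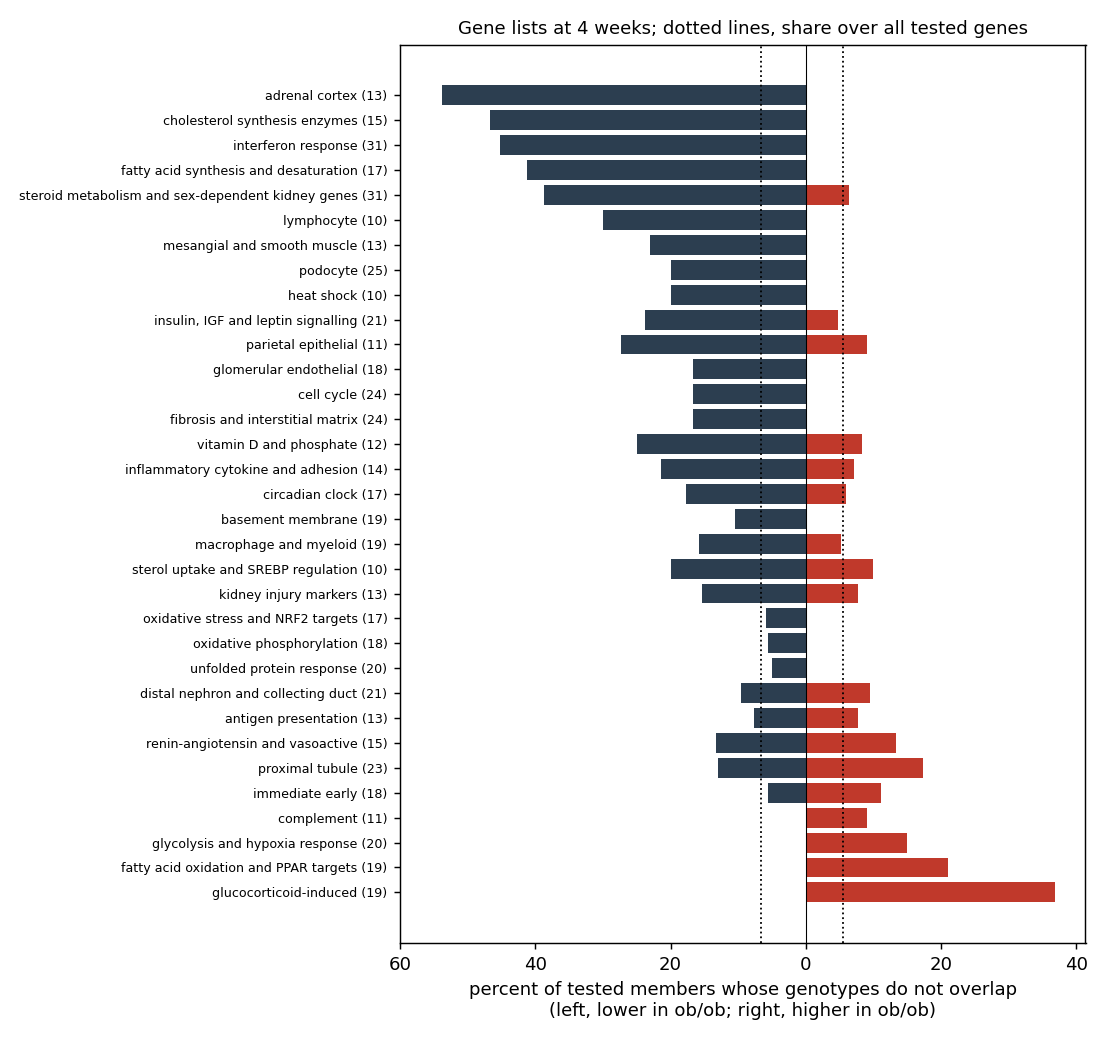
Percent of tested members (horizontal axis) that were lower (dark bars, left) or higher (red bars, right) in ob/ob without overlap, for each list with at least 10 tested genes; the number tested is in parentheses. Dotted lines mark all genes, 6.66% lower and 5.47% higher. The adrenal cortex and glucocorticoid lists were made after the values were seen, and the others with earlier results of these data known.

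Animals of the other ages were different mice, so they show whether the early differences recurred. Of the 61 genes with a difference of at least 1 and no overlap at 4 weeks, 58 had the same sign at 8 weeks, 54 at 16 weeks and 58 at 24 weeks, while 58.6%, 58.3% and 65.0% of all genes did. Past an adjusted p of 0.05 in the same direction were 23 of them at 8 weeks, 32 at 16 weeks and 42 at 24 weeks (all genes in either direction, 1.69%, 2.25% and 25.9%), and none was past it in the opposite direction. Without the 3 ob/ob arrays of 24 weeks that stand apart, 57 had the same sign at 24 weeks and 24 were past the threshold (all genes, 0.992%), with 1 ob/ob animal left at that age. Of the 61, 50 kept their sign at all ages. At both 8 and 16 weeks 15 were past the adjusted threshold: Agt, Guca2b, Tspan33, Apob, Bbox1, Clca3a1, Clca3a2 and Cyp27b1 were higher, and Slc22a19, Kap, Mep1b, Slc22a7, Scd1, Lpl and Keg1 were lower.

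Sizes differed between these genes. Kap differed by -2.05 ± 1.02 at 4 weeks, -4.60 at 8 weeks (adjusted p = 0.00608) and -4.05 at 16 weeks. Apob differed by 1.28 ± 0.47 at 4 weeks and by 2.66 and 2.69 at 8 and 16 weeks. Cyp27b1 differed by 2.73, 3.28 and 3.83, and Slc22a19 by -2.88, -3.40 and -3.54. In each of these 4 genes the point estimate was larger at 8 and 16 weeks than at 4 weeks. At 24 weeks that of Cyp27b1 was smaller, at 1.59. It was 0.73 without the 3 ob/ob arrays that stand apart, which leaves 1 ob/ob animal. Hdc, which makes histamine, read 6.12, 5.83 and 6.05 in ob/ob and 7.50, 7.48 and 7.30 in wild type at 4 weeks, a difference of -1.43, and its differences were -0.36 at 8 weeks and -3.87 at 16 weeks. For the change of the genotype difference itself from 4 weeks, limma called 0 genes at 8 weeks, 0 at 16 weeks and 1 at 24 weeks (0.00415%), and none of the 61, so none of these increases passed a test.

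**Figure D5:**
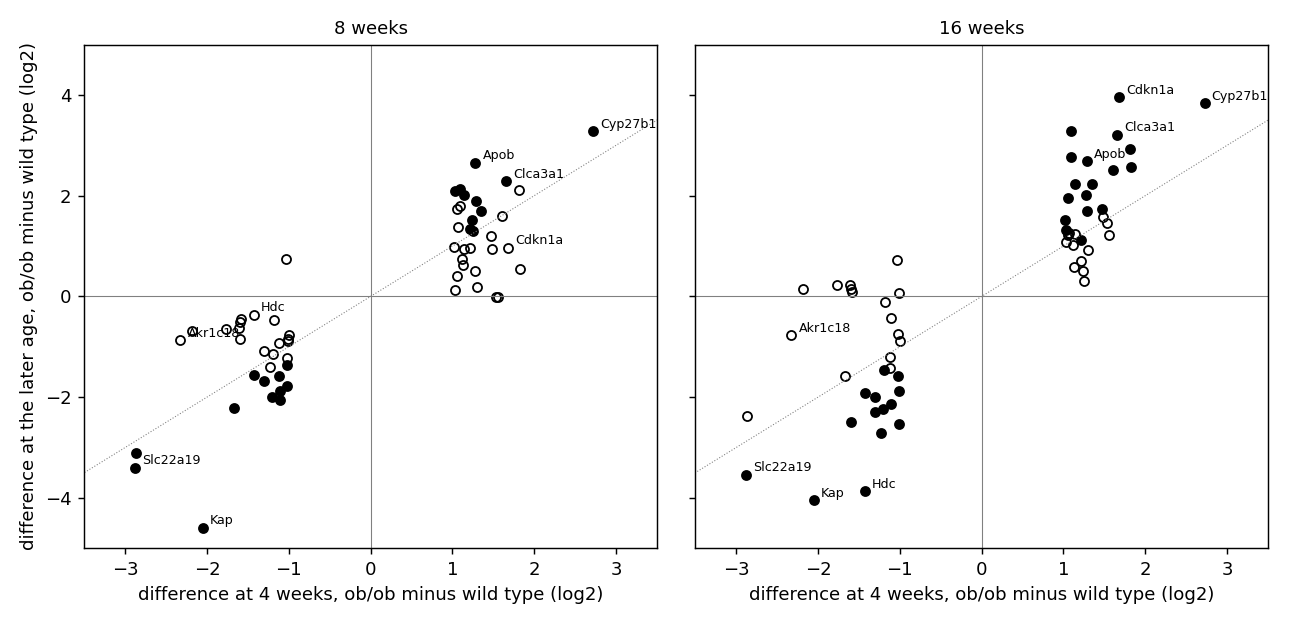
Difference at 8 weeks (left) and 16 weeks (right) on the vertical axis against the difference at 4 weeks on the horizontal axis, ob/ob minus wild type in log2 units, for the 61 genes. Filled points passed an adjusted p of 0.05 at the later age, 23 of 61 at 8 weeks and 32 at 16 weeks, and the dotted line marks equal differences.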

How the data were processed

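Signals of 30 mouse transcriptome arrays were used as deposited: log2 values made by the authors with RMA in Affymetrix Expression Console 1.4, per the submitters' processing notes. Further settings: not given in the sources used here. Of the values of tested genes at 4 weeks 1.35% lay above 16, beyond a 16-bit scanner, so an unstated step stretched the scale. Of 65956 transcript clusters 30604 carried 1 gene symbol in the platform annotation, 2146 several and 33206 none; this gave 30142 genes, each represented by its brightest probe set. A gene was tested when 3 or more arrays read 5 or higher, which 24099 genes did; intron controls lay above that limit.

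The limma package (3.58.1, R 4.3.3; lmFit, eBayes) estimated a mean for each of 8 groups of the 30 arrays, with the contrast ob/ob minus wild type at 4 weeks, the same contrast at other ages and the change between ages. P-values were adjusted over all genes by the Benjamini-Hochberg method. The fit was tested on simulated data. Each animal gave 1 array, and 3 animals per genotype limit the precision (median standard error 0.16).

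Genes were named by rule: past the adjusted threshold; the 15 largest differences in each direction without overlap and with a group mean of at least 8, leaving out predicted genes; up to 5 members without overlap per list; any member of the cholesterol, fatty acid and interferon lists; and fixed podocyte, tubule, leptin and Akr1c genes. Others were named after their values were seen: Star, Cyp21a1, Cyp11b1, Hsd3b1, Mc2r, Mrap, Nr5a1, Slc22a29, Slc22a30, Guca2b, Sgk1, Hif3a, Per1, Hspa1a, Odc1, Hsd3b2, Hdc, Aspn and Lgr5. Members and 33 lists were chosen with earlier results of these data known, and 3 lists (adrenal cortex, adrenal medulla, glucocorticoid-induced) after the values were seen. Members measured without a single-symbol probe set are not analysed here. The replicate numbers were not used to pair the animals in the main fit. Same-numbered arrays of 4 weeks correlated at 0.58, 0.01 and 0.19 in their deviations from the group means. Arrays with different numbers correlated at -0.55 to 0.54. With 3 arrays per group these correlations cannot exclude a pairing. Alternatives were other filters, scalings, weights and subsets of arrays, and each array of 4 weeks left out; leaving out 3 arrays of 24 weeks was added after the data were seen.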

Additional observations from a re-analysis of the deposited data

Results flagged for a closer look

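Lgr5, a receptor of R-spondins that marks progenitor cells in many epithelia, was the 1 gene past the adjusted threshold for a change of the genotype difference between 4 weeks and a later age. At 4 weeks it read 5.90 to 5.99 in ob/ob and 5.91 to 5.99 in wild type, a difference of 0.01 ± 0.09. The genotypes did not overlap at 8 weeks, with 5.72 to 5.89 in ob/ob and 5.99 to 6.21 in wild type. At 16 weeks they read 5.91 to 6.15 and 6.47 to 6.65. At 24 weeks the median was 5.88 in ob/ob and 6.58 in wild type. The medians of 4 weeks were 5.98 and 5.95. The change of the difference was -0.73 (limma interaction, adjusted p = 0.0265), and all 4 ob/ob arrays of 24 weeks lay below all 4 wild-type arrays. These values lie near the intron control level. Leaving out any of 4 arrays of 4 weeks (ob/ob replicates 2 and 3, wild-type replicates 2 and 3) gave no call for any gene. With only the arrays of 4 and 24 weeks the adjusted p of Lgr5 was 0.166 and the 1 gene called was Gpam, an enzyme of triglyceride synthesis; with arrays centred on their median the adjusted p of Lgr5 was 0.0543, and with array quality weights 4001 genes were called, Lgr5 among them. In 3 of the 4 ob/ob arrays of 24 weeks exon and intron controls were separated less than elsewhere (0.762 to 0.783) and the intron controls were brighter (6.68 to 6.79). Without these arrays the change of Lgr5 was -0.57 (adjusted p = 0.3501), and the 4 genes called did not include it. With 3 arrays in each group at 4 weeks, no single array was tested for standing apart.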

How the results depend on the processing

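The count of genes past the adjusted threshold at 4 weeks was 1 in most settings, 0 with only the 6 arrays of 4 weeks, 2 with cyclic loess (Akr1c18 and Tspan33) and 31 with array quality weights (13 higher, 18 lower, among them Star, Cyp11a1, Cyp21a1, Cyp11b1 and Hsd3b1); it ran from 0 to 6 with 1 array of 4 weeks left out. Genes with an unadjusted p under 0.05 were 1978 with array quality weights, and 547 to 1697 with 1 array left out. Genes without overlap numbered 352 at a difference of at least 0.5, and at least 1 gave 59 to 91 with 1 array left out. For the change from 4 to 24 weeks cyclic loess called 31 genes, leaving out 1 array of 4 weeks gave 0 to 11, and leaving out the 3 ob/ob arrays of 24 weeks that stand apart, chosen after seeing the data, gave 4.

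The replicate number was also fitted as a block, a pairing that the correlations between arrays neither show nor exclude. The counts were then 0 at 4 weeks and 0 for the change from 4 to 24 weeks. The limma adjusted p of Akr1c18 at 4 weeks was 0.0994, and 1246 genes had an unadjusted p under 0.05. The cause of these shifts was not tested.

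The difference of Lep ran from -0.14 to 0.034 with 1 array left out. Lgr5 at 4 weeks turned to -0.026 with cyclic loess and ran from -0.0083 to 0.039 with 1 array left out. Of 94 named genes without overlap none turned its sign in any setting and 16 moved by over 1.5 times. Those not given so far were Cyp11a1, at -1.04 without wild-type replicate 3 and -0.82 with probe sets averaged, Slc22a13 at -0.63 without wild-type replicate 3, Cpt2, Cyp4a14 and Hsp90aa1 at 0.103, 0.55 and -0.35 without wild-type replicate 2, Ifit1 and Ifit3 at -0.23 and -0.11 without wild-type replicate 1, and Stat2 at -0.23 without ob/ob replicate 1. The small number of animals and signals near background limits what small differences can show.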
